A study of Mus musculus with 12 samples.

Results

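Immediate early genes are transcribed within minutes of a stimulus, before any new protein is made, and their transcripts decay quickly. The 10 immediate early genes described here (Fos, Fosb, Jun, Junb, Egr1, Ier2, Arc, Npas4, Atf3 and Dusp1) were chosen by name, as signs of dissociation stress or of activity, and are 10 of the 24489 genes in the count table. They were read in single cells of the mouse cochlea that were dissociated, sorted for the red reporter tdTomato and sequenced with Smart-seq2. The 12 samples were 384-well plates, named by embryonic (E) or postnatal (P) day, with 3 plates at E16.5, 1 plate at E17.5 and 2 plates each at P3, E18.5, E15.5 and E14.5. All plates but 1 were labelled PVcre;Ai14, a Cre at the parvalbumin locus with the Cre-dependent tdTomato reporter Ai14. E14.5 replicate 2 was labelled TrkCcre, a Cre at the locus of the neurotrophin receptor TrkC (Ntrk3), and the methods name this driver for E14.5 as a whole, so the driver of E14.5 replicate 1 is not settled. No plate carried a gene deletion or a treatment, and there was no undissociated tissue to compare with. The methods give 1 protocol of papain digestion, trituration and sorting for tdTomato at all stages, but the dissection before it differed. Spiral ganglia were taken at the later embryonic stages, whereas E14.5 and E15.5 samples were the modiolar part of an opened cochlea. Between E15.5 and E16.5, dissection and stage therefore cannot be told apart. The E18.5 cells were sorted at another facility and the P3 plates came from an earlier study of the group. At E18.5 and P3 these differences and stage cannot be told apart either. Several animals were pooled for each experiment, and a plate says nothing of single animals.

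Fos, Fosb, Jun and Junb encode subunits of the AP-1 transcription factor, in which a FOS protein pairs with a JUN protein, or 2 JUN proteins pair. Atf3, a related factor, is induced by cellular stress and marks injured sensory neurons. Egr1 encodes a zinc-finger factor induced through MAP kinases and serum response factor, Ier2 a short nuclear protein of the same early response, and Dusp1 a phosphatase that switches MAP kinases off again. Npas4, a factor largely restricted to neurons, follows calcium influx, and Arc encodes a protein of synapses whose RNA follows synaptic activity. Warm enzymatic dissociation is known to induce many of these genes in many tissues.

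Spiral ganglion neurons (SGNs), glia, otic mesenchyme (OM) and hair cells (HCs) were told apart by clustering, with the 10 genes kept out of the clustering, and each cluster was named from marker genes as SGN-like, glia-like, OM-like or HC-like. Of 4608 wells, 4226 held a cell that was kept. The 12 plates held 61 to 376 SGN-like cells each, with median depths of 228326 to 1092427 counts per cell. The plates fall into 4 series by their names. SS2_20 holds E14.5, E15.5, E17.5 and E16.5 replicate 3, SS2_18 holds E16.5 replicates 1 and 2, SS2_19 holds E18.5 and SS2_15 holds P3, so that at E18.5 and P3 stage and series cannot be told apart. SGN-like cells carried summed counts of 10 SGN markers at 12010 to 15817 CPM (counts scaled to a common library total) in every series, but their summed level of 10 glial markers differed between series. It was 64.6 to 203 CPM in SS2_20, 863 to 937 CPM in SS2_18, 3064 to 3179 CPM at E18.5 and 4953 to 5974 CPM at P3. This bears on every comparison of stages below, because 7 of the 10 genes (all but Arc, Npas4 and Dusp1) are in the list of glia-linked genes that the study removed from its own analysis. Stage results are therefore also given for the SGN-like cells under 100 CPM of glial markers. No doublet caller was run. Cells are named by plate and well, so no cell name was shared between plates, and at E18.5 the 32 and 36 cells with both SGN and glial markers were kept apart as a mixed class.

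In the mouse genome (GRCm38, GENCODE annotation), the 10 genes lie on 9 chromosomes, and only Ier2 and Junb share one, chromosome 8. Fos lies at chr12:85473890-85477273 on the plus strand, Jun at chr4:95049034-95052222, Junb at chr8:84974484-84978718, Dusp1 at chr17:26505590-26562128 and Npas4 at chr19:4984355-4990316, all on the minus strand. Jun shares exonic bases with the antisense gene Junos, Junb with Prdx2 and Dusp1 with Ergic1, each on the opposite strand, and the sources used here do not say if strand was used in counting, so reads in those stretches cannot be assigned to either gene with certainty. In the 6 SS2_20 plates Prdx2 ran the other way from Junb, at 1312 to 1437 CPM in SGN-like, 595 to 780.3 CPM in glia-like and 610 to 815 CPM in OM-like cells, and Ergic1 ran at 83.4 to 120.02, 78.4 to 133.04 and 107 to 200.1 CPM in the same order.

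Promoter sequences are shown for the pair of genes that were highest per length in SGN-like cells, Fos and Dusp1, and for the AP-1 genes Jun and Junb. The sequences are from RefSeq (GRCm38.p6), 250 bases before the annotated start, 5′ to 3′ on the gene's strand, and 7 of the 10 genes had an entry (Fos, Fosb, Jun, Junb, Npas4, Atf3 and Dusp1). Capitals mark the cyclic AMP response element (CRE) core TGACG or its reverse complement CGTCA, the binding letters of CREB and ATF factors. The Dusp1 window stops 47 bases short of the start, where annotated exons begin. The windows are chr12:85473640-85473889 (plus strand) for Fos, chr4:95052223-95052472 (minus) for Jun, chr8:84978749-84978998 (minus) for Junb and chr17:26508520-26508722 (minus) for Dusp1.
Fos: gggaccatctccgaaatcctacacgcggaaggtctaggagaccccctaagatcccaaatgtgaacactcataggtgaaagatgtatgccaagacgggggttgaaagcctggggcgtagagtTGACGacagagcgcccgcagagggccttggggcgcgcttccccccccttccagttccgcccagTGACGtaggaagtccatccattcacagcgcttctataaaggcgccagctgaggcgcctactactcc
Jun: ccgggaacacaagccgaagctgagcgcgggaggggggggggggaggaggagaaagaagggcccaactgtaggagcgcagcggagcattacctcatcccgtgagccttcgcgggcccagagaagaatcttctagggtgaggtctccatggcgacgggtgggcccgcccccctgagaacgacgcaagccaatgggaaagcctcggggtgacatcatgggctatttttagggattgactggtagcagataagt
Junb: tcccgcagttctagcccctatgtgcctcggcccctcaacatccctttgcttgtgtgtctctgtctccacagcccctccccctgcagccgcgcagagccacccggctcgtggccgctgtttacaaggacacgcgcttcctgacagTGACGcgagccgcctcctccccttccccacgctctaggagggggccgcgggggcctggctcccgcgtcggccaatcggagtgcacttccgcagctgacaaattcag
Dusp1: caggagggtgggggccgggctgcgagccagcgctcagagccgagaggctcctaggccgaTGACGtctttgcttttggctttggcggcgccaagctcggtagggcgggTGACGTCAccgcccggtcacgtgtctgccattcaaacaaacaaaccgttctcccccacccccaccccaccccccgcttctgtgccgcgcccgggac
The CRE core stood in 6 of the 7 windows (not in that of Jun), against 17.8% of all 32851 RefSeq promoter windows of this length, counting both strands. The 7 windows held 58.4% to 68.8% GC, against a median of 52.4% over all windows, and the share over all windows was not matched for GC. The core lay 129 and 66 bases before the start of Fos, 60 before Fosb, 106 before Junb, 179 and 169 before Npas4, 7 before Atf3, and 191 before Dusp1, besides the full CRE of Dusp1. All 250 bases of the Npas4 window lie in annotated exons of the gene, and so does the match of Atf3. The full CRE TGACGTCA, which holds the core on both strands, was found in the window of Dusp1 alone, ending 136 bases before the start, and in 1.55% of all windows. The AP-1 letters TGANTCA were in 0 of 7 windows and in 6.75% of all windows, and the CArG box of serum response factor was in 0 of 7 and 1.47%. These are matches of letters in a short window and show nothing about binding.

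In SGN-like cells Fos was by far the most abundant of the 10 transcripts per length, at 422 ± 182 CPM per kb of exon (SD, n = 12 plates). Dusp1 followed at 137 ± 50.9, Jun at 94.0 ± 44.1, Egr1 at 71.0 ± 46.9 and Ier2 at 45.5 ± 18.49 CPM per kb. Junb (33.7 ± 20.4) and Fosb (31.3 ± 14.7) were within their spread of each other, and Atf3 (16.7 ± 11.9), Npas4 (5.97 ± 3.78) and Arc (2.69 ± 1.42) were lowest. Together the 10 genes took 0.135% to 0.379% of the counts of SGN-like cells, lowest in the P3 plates and highest in E18.5 replicate 1. With each cell thinned to 100000 counts, the median SGN-like cell had a count for 5 to 7 of the 10 genes in the SS2_20 plates and for 8 in each plate of the other series.

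Levels of these genes in SGN-like cells differed between stages. Counts were summed per plate and tested with edgeR's quasi-likelihood test, with Benjamini-Hochberg adjustment over 17698 genes and the plate as the replicate. By this test 9 of the 10 genes (all but Arc, adjusted p = 0.142) differed between stages at an adjusted p under 0.05, against 45.2% of all genes tested. The largest difference between any pair of stages was 3.89 on the log2 scale for Npas4, 3.13 for Atf3, 2.71 for Egr1, 2.70 for Junb and 2.25 for Jun, and it was 1.46 to 1.78 for Fos, Fosb, Ier2 and Dusp1. With the SS2_20 plates alone, which span E14.5 to E17.5, the largest difference of a gene ran from 0.96 to 3.89 on the log2 scale. There E16.5 and E17.5 rest on 1 plate each. The 4 steps between stages below come from the fit over all stages and share plates, each middle stage serving in 2 of them. The values are levels in normalised CPM, in the order of the replicates.

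**Figure D1:**
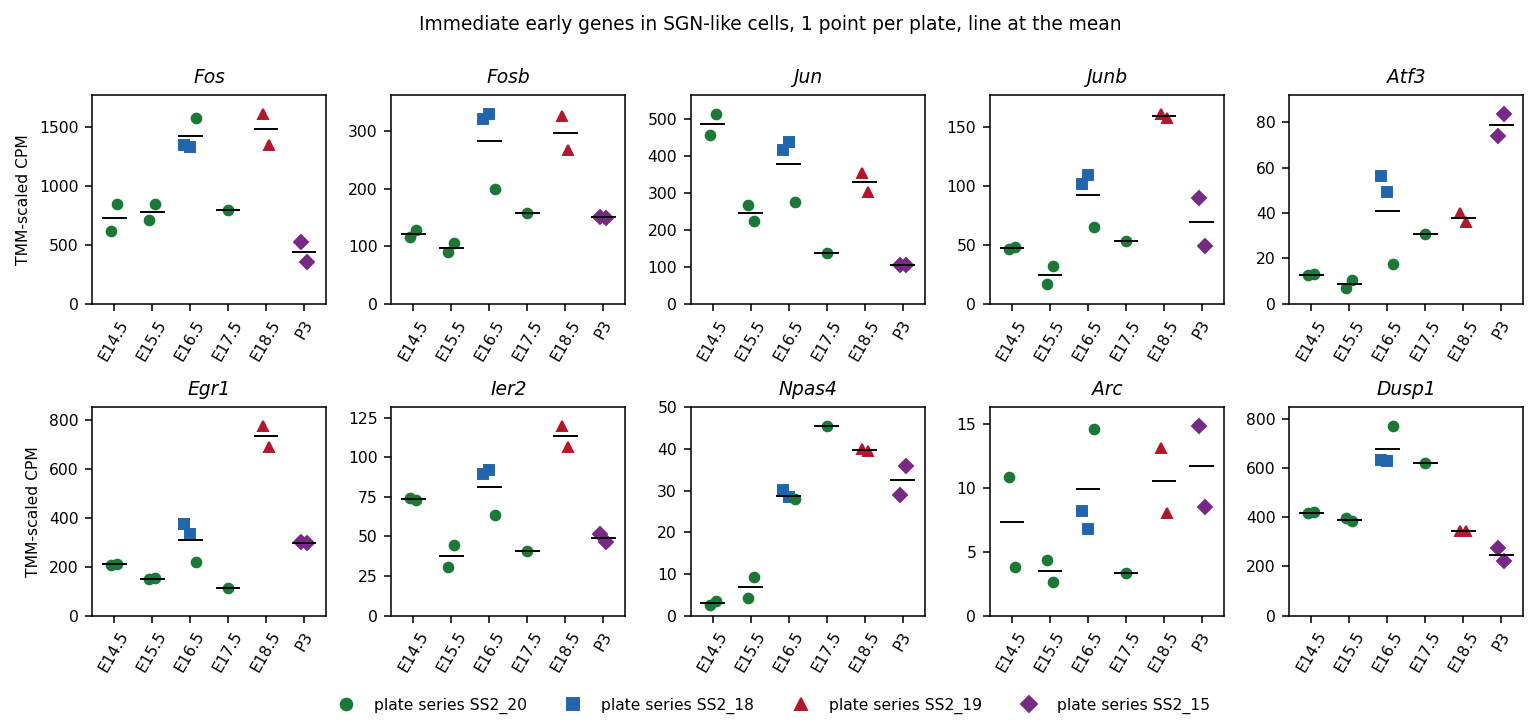
Levels of the 10 genes in SGN-like cells by stage (x axis) in normalised CPM (y axis, linear, starting at 0), with 1 panel per gene, 1 point per plate coloured by plate series and a line at the stage mean. Npas4 is at 2.53 to 9.28 CPM through E15.5 and at 27.95 CPM or more in every later plate, whereas Fos and Jun have their lowest 2 plates at P3.

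Among the AP-1 subunits, Fos was at 618 and 842 CPM in the plates of E14.5 and at 714 and 843 CPM a day later. In the E16.5 plates it read 1348, 1331 and 1576 CPM, at E17.5 795 CPM and at E18.5 1610.1 and 1348 CPM, before 519.6 and 356 CPM at P3. All E16.5 and E18.5 plates thus lay above all plates of the other stages. Fosb followed a like course, with 89.6 to 128 CPM at E14.5 and E15.5, then 322, 331 and 199.8 CPM at E16.5, 159 CPM at E17.5, 328 and 267 CPM at E18.5, and 152 and 149.7 CPM at P3. Junb was lowest at E15.5, with 17.1 and 31.6 CPM, and highest at E18.5, with 161 and 158 CPM. Jun had another course, falling from 458 and 515 CPM at E14.5 to 267 and 223 CPM at E15.5. At E16.5 Jun read 417, 438 and 277 CPM and at E17.5 136 CPM, and after 355 and 303 CPM at E18.5 it was at 106 and 104 CPM at P3, under every other plate.

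From E14.5 to E15.5, 2 of the 10 genes fell (Jun and Ier2) and 0 rose, against 2.77% of all genes lower and 3.28% higher, 6.06% in all. The log2 difference was −1.0 ± 0.19 (SE; adjusted p = 0.0138, edgeR) for Jun and −0.98 ± 0.21 (adjusted p = 0.0250, edgeR) for Ier2. Both plates of each stage agreed in direction for these 2 genes, whose E14.5 and E15.5 values did not overlap. In cells under 100 CPM of glial markers Jun again fell (−0.999, adjusted p = 0.0136, edgeR), Npas4 rose (1.79, adjusted p = 0.0458, edgeR) and Ier2 was at −0.72 (adjusted p = 0.167, edgeR). Fewer of the 10 genes, and fewer of all genes, passed without E14.5 replicate 1, E15.5 replicate 2 or E18.5 replicate 1. Ier2 missed without E15.5 replicate 1.

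From E15.5 to E16.5, 7 of the 10 genes rose and 0 fell, against 1.42% of all genes higher and 0.475% lower, 1.9% in all. Atf3 rose 4.57-fold (log2 2.19 ± 0.42, adjusted p = 0.0295, edgeR), Npas4 4.12-fold (2.04 ± 0.32, adjusted p = 0.0134), Junb 3.69-fold (1.89 ± 0.33, adjusted p = 0.0205) and Fosb 2.85-fold (1.51 ± 0.20, adjusted p = 0.00664). Ier2 rose 2.13-fold, Egr1 1.99-fold and Dusp1 1.70-fold, while Fos (log2 0.83 ± 0.19, adjusted p = 0.0528, edgeR), Jun (0.59, adjusted p = 0.121) and Arc (1.48 ± 0.57, adjusted p = 0.223) were positive and did not pass. Over the 10 genes the median difference was 1.28 on the log2 scale, against 0.04 over all genes tested. The dissection changed at this step too, within series SS2_20 as well, and its part in the rise was not tested. The count rested on the plates used, and so did the calls over all genes, 336 of 17698 with all plates. It was 3 without E16.5 replicate 1 or replicate 2, where 86 of 16469 and 89 of 16472 genes passed in all. Both also fell without either E15.5 plate or either E18.5 plate, which leaves 1 plate at that stage. With any of the 12 plates left out all 10 differences stayed positive, at 0.47 to 2.72 on the log2 scale. Within series SS2_20, with 2 plates of E15.5 and 1 of E16.5, all 10 differences were again positive, 0.16 to 2.06 on the log2 scale, and 8 had an unadjusted p under 0.05, but 0 passed, as did 0 of 15568 genes.

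From E16.5 to E18.5, Egr1 rose and Dusp1 fell, 1 of 10 in each direction, against 2.53% of all genes higher and 2.25% lower, 4.77% in all. Egr1 had read 206 and 213 CPM at E14.5, 149 and 153.2 CPM at E15.5 and 111 CPM at E17.5. It went from 374, 334 and 218 CPM at E16.5 to 777 and 690.3 CPM at E18.5, a 2.42-fold rise (log2 1.27 ± 0.17, adjusted p = 0.00329, edgeR) in which the groups did not overlap. Dusp1 went from 633, 629 and 773 CPM to 345 and 343 CPM, a 1.94-fold fall (log2 −0.96 ± 0.13, adjusted p = 0.00283, edgeR). Without E18.5 replicate 1 the rise of Egr1 missed the threshold (1.15, adjusted p = 0.068, edgeR) and the fall of Dusp1 alone remained.

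From E18.5 to P3, 7 of the 10 genes fell and 0 rose, against 12.2% of all genes lower and 12.7% higher, 24.9% in all. Fos fell 3.44-fold (log2 −1.78 ± 0.21, adjusted p = 0.000186, edgeR), Jun 3.19-fold (−1.67 ± 0.19, adjusted p = 0.000186) and Egr1 2.50-fold (−1.32 ± 0.19, adjusted p = 0.000744), to 300.3 and 296 CPM at P3. Ier2, Junb, Fosb and Dusp1 were the other genes that fell, by 1.24, 1.23, 1.01 and 0.50 on the log2 scale. Atf3 stood at 39.8 and 36.2 CPM at E18.5 and at 73.9 and 83.8 CPM at P3 (log2 1.03 ± 0.42, adjusted p = 0.103, edgeR). Its 2 P3 plates were thus above all 10 other plates when all SGN-like cells were used. In cells under 100 CPM of glial markers Atf3 read 33.2 CPM in P3 replicate 1 and 14.3 and 16.9 CPM at E18.5. At E16.5 it read 37.1, 29.8 and 8.42 CPM in such cells, so P3 was not highest there. Fewer of the 10 genes, and fewer of all genes, passed without E18.5 replicate 1, E18.5 replicate 2 or P3 replicate 2. Fos, Jun, Egr1 and Ier2 fell with any of the 12 plates left out.

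Npas4 rose over the embryonic stages. It stood at 2.53 and 3.61 CPM at E14.5 and 4.31 and 9.28 CPM at E15.5. From E16.5 on it read 30.1, 28.4 and 27.95 CPM, then 45.6 CPM at E17.5, 40.1 and 39.5 CPM at E18.5, and 29.0 and 36.0 CPM at P3, so that the groups before and after did not overlap. Behind these levels, the share of SGN-like cells with a Npas4 count, each thinned to 100000 counts, was 2.90% and 5.17% at E14.5 and 10.4% and 10.6% at E15.5. It then ran from 34.3% to 54.9% in the 8 later plates (unthinned, 2.90% to 12.8% before E16.5 and 34.8% to 67.2% after). The share in a class that should lack the gene was 0% to 0.452% in the glia-like cells of the SS2_20 plates, at a median of 229000 to 284212 counts per cell against 228326 to 267376 in their SGN-like cells. In the other series it was higher, with a Npas4 count in 9 of 23 (39.1%) and 3 of 10 thinned glia-like cells of the SS2_18 plates and in 2 of 10 in each E18.5 plate. In the SS2_18 plates Npas4 read 25.8 and 9.86 CPM in glia-like cells, against 30.1 and 28.4 CPM in SGN-like cells, and those glia-like cells also held 6821 and 8704 CPM of SGN markers. The share of cells in these series therefore cannot be read against a background near 0, and the part of RNA from other cells in it was not tested. Within SS2_20, where the background was low, the share in SGN-like cells was 2.90% to 10.6% before E16.5 and 34.3% and 38.6% at E16.5 and E17.5. In E18.5 SGN-like cells under 100 CPM of glial markers Npas4 read 41.5 and 42.6 CPM, against 40.1 and 39.5 CPM in all SGN-like cells.

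Dusp1 was steady at 384 to 420.2 CPM at E14.5 and E15.5, rose to 629 to 773 CPM at E16.5 and 619.7 CPM at E17.5, and was at 345 and 343 CPM at E18.5 and 274 and 221 CPM at P3. It was present broadly, with a count in 82.4% to 98.0% of thinned SGN-like cells over the 12 plates. Arc was the least abundant, at 2.62 to 14.8 CPM over the 12 plates with no order by stage. In the SS2_20 plates its counts sat in few cells, the highest 5% of SGN-like cells holding 83.5% to 100% of them. In the other 6 plates its counts were spread more widely, with a count in 14.1% to 29.3% of thinned cells and 43.4% to 65.3% of counts in the highest 5%. A difference of Arc between stages was not detectable in all SGN-like cells, although it passed in those under 100 CPM of glial markers (adjusted p = 0.032, edgeR).

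The level of glial markers moved with several of these stage differences. Across SGN-like cells within a plate, Egr1 had the highest median correlation with the summed glial markers over all 12 plates (Pearson r 0.17, range −0.13 to 0.82, cells of a plate sharing its library and depth). Atf3 (0.16), Fosb (0.13) and Fos (0.12) followed, whereas the medians of Npas4 (−0.01) and Dusp1 (−0.08) were below 0. In the 6 plates outside SS2_20, where glial markers were higher, the order was another. There the median was 0.44 for Fosb, 0.29 for Atf3, 0.28 for Jun, 0.19 for Egr1 and 0.16 for Fos, and −0.06 for Npas4 and −0.13 for Dusp1. In cells under 100 CPM of glial markers (89 and 74 cells at E18.5), Egr1 fell from 777 to 97.8 CPM in E18.5 replicate 1 and from 690.3 to 111 CPM in replicate 2. Fos went from 1610.1 to 556 and from 1348 to 526 CPM there, Fosb from 328 to 121 and from 267 to 107 CPM, and Jun from 355 to 131 and from 303 to 141 CPM, while Dusp1 stayed at 338 and 319 CPM. At E16.5, by contrast, Fos read 1499, 1334 and 1466 CPM in such cells and Fosb 339, 334 and 167 CPM, close to the values of all SGN-like cells.

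**Figure D2:**
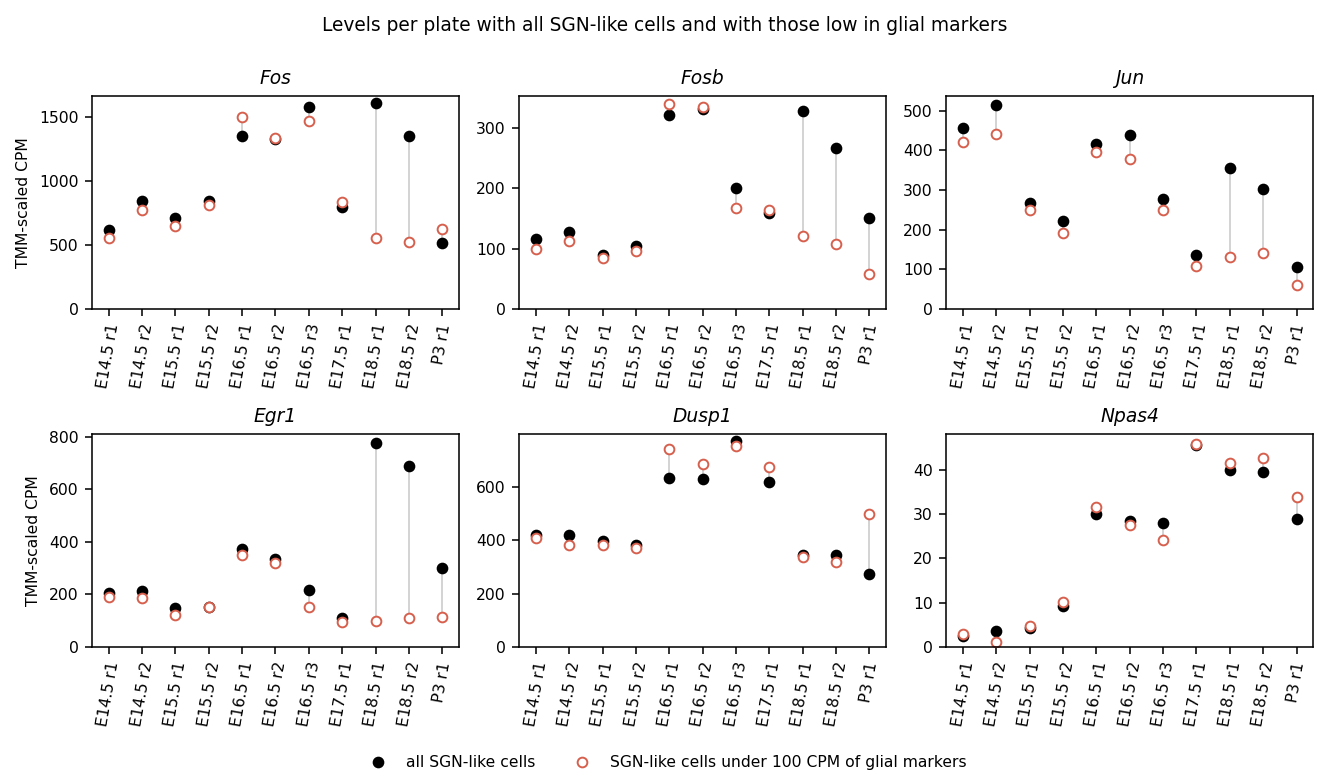
Levels (normalised CPM, y axis, linear) of Fos, Fosb, Jun, Egr1, Dusp1 and Npas4 per plate (x axis) in all SGN-like cells and in the SGN-like cells under 100 CPM of glial markers, with 11 plates and without P3 replicate 2, which had 2 such cells. At E18.5 the pairs for Egr1 are far apart (777 and 97.8 CPM in replicate 1), and those for Npas4 lie close together (40.1 and 41.5 CPM).

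With these cells the later steps read otherwise. From E15.5 to E16.5, 4 of the 10 genes rose (Junb, Fosb, Fos and Dusp1, by 0.85 to 1.72 on the log2 scale), Npas4 was at 1.80 (adjusted p = 0.0629, edgeR) and 160 of 15644 genes passed in all. From E16.5 to E18.5, 5 fell: Fos by 1.38 (adjusted p = 0.00124, edgeR), Egr1 by 1.34 (adjusted p = 0.0213), Jun by 1.29 (adjusted p = 0.00346), Fosb by 1.25 (adjusted p = 0.0174) and Dusp1 by 1.12 (adjusted p = 0.000538), so Egr1 turned its direction. Over this step 546 of 15644 genes passed in all. From E18.5 to P3, P3 had 17 cells of 1 plate, and differences alone are given. They were −1.10 for Jun, 0.70 for Dusp1, 0.31 for Fos and 0.24 for Egr1 on the log2 scale. The calls made both with and without the cells rich in glial markers were the rise of Fosb, Junb and Dusp1 into E16.5, the fall of Dusp1 to E18.5 and the fall of Jun at E15.5. The difference of Jun at P3 was negative in both, with 1 P3 plate in the cells low in glial markers. Whether glial RNA in SGN-like cells set the other differences was not tested.

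E16.5 is the stage sequenced in 2 series, which allowed a comparison of series at 1 age. Atf3 was 2.98-fold higher (log2 1.58 ± 0.27, adjusted p = 0.0427, edgeR) and Egr1 1.59-fold higher (0.67 ± 0.12, adjusted p = 0.0427, edgeR) in the 2 SS2_18 plates than in the SS2_20 plate. These 2 of 10 genes compare with 0.61% of all genes higher, 0.339% lower and 0.949% in all. Atf3 read 56.5 and 49.0 CPM against 17.3 CPM. Npas4 read 30.1 and 28.4 CPM against 27.95 CPM, a log2 difference of 0.03, and the share of thinned cells with its transcript was 45.6% and 42.6% against 34.3%. Neither call held without either SS2_18 plate, either E18.5 plate or either P3 plate, where fewer of all genes passed as well. Without either E14.5 plate more of the 10 genes and more of all genes passed. Plates of other stages do not enter the contrast but set the spread. With each of 11 plates left out in turn, the log2 difference was 1.49 to 1.69 for Atf3 and 0.60 to 0.76 for Egr1.

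Cell classes were compared within the SS2_20 plates, where SGN-like (434 cells), glia-like (1149) and OM-like cells (543) came from the same plates, animals and sort. Glia-like cells carried 140 to 198 CPM of SGN markers and 10706 to 19262 CPM of glial markers. Of the 10 genes, 7 were higher and 2 lower in glia-like than in SGN-like cells, against 28.2% of all genes higher, 25.5% lower and 53.7% in all. In OM-like cells 7 were higher and 1 lower than in SGN-like cells, against 24.4%, 23.3% and 47.6%. Between OM-like and glia-like cells 6 of the 9 genes tested were higher in OM-like cells and 1 lower, against 10.6%, 10.4% and 21.0%. The 3 comparisons share their sums.

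**Figure D3:**
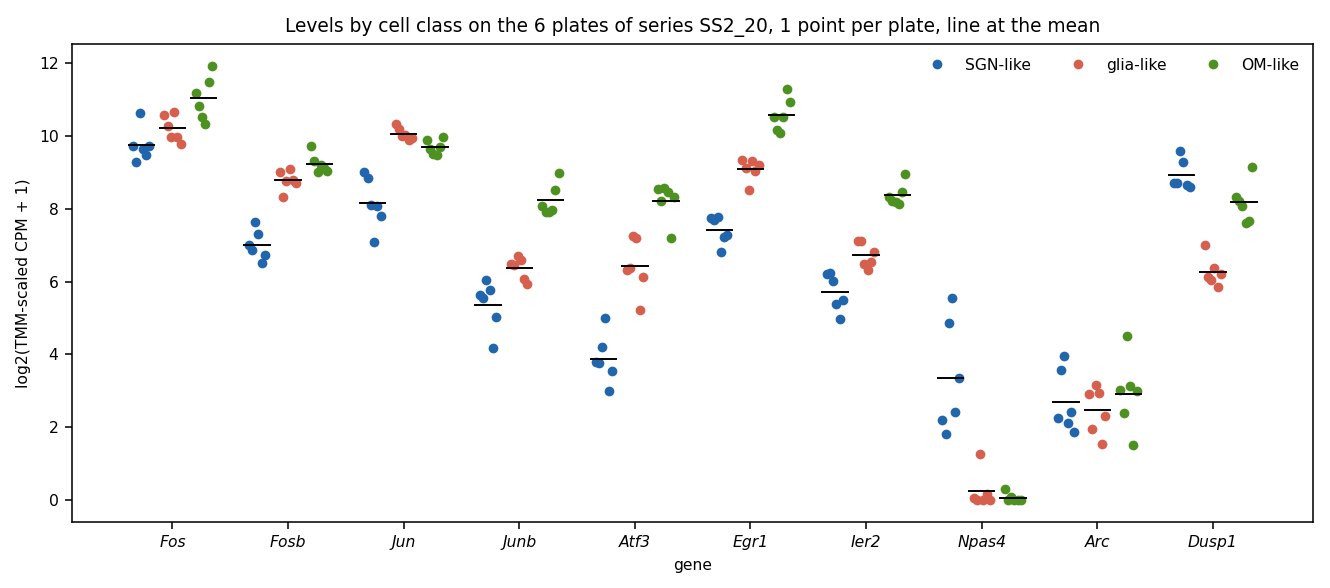
Levels of the 10 genes in SGN-like, glia-like and OM-like cells of the 6 SS2_20 plates, as log2 of normalised CPM plus 1 (y axis), with 1 point per plate and class and a line at the mean. The plates of Egr1 and Ier2 separate in the order SGN-like, glia-like, OM-like without overlap, those of Junb and Atf3 keep this order with slight overlap of neighbouring classes, whereas Dusp1 is lowest in glia-like cells and Npas4 is near 0 outside SGN-like cells in these 6 plates.

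Among AP-1 subunits, Jun was higher in glia-like cells than in either other class. Its lowest, median and highest levels over the 6 plates were 136, 272 and 515 CPM in SGN-like, 953, 1031 and 1281 CPM in glia-like and 717, 811 and 1012 CPM in OM-like cells. It was 4.21-fold higher in glia-like (log2 2.07 ± 0.22, adjusted p = 0.000129, edgeR) and 3.24-fold higher in OM-like than in SGN-like cells, with no overlap of the SGN-like plates with either class. Fosb was at 89.6, 122 and 199.8 CPM in SGN-like, 319, 439 and 542 CPM in glia-like and 518, 571 and 846 CPM in OM-like cells, 3.85-fold and 5.22-fold above SGN-like cells. Junb rose most in OM-like cells, with 17.1, 47.2 and 65.2 CPM in SGN-like, 60.6, 87.8 and 103 CPM in glia-like and 239.6, 260.1 and 503 CPM in OM-like cells, 2.28-fold and 8.15-fold above SGN-like cells. Its overlap partner Prdx2 was lower in both classes than in SGN-like cells, as given above.

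Of the AP-1 subunits, Fos differed least from SGN-like cells. It was at 618, 818 and 1576 CPM in SGN-like, 872, 1130 and 1616 CPM in glia-like and 1298, 2056 and 3910.3 CPM in OM-like cells, so that SGN-like and glia-like plates overlapped. Fos was 1.56-fold higher in glia-like cells (log2 0.64 ± 0.22, adjusted p = 0.0408, edgeR) and 2.76-fold higher in OM-like cells (1.46 ± 0.29, adjusted p = 0.00424, edgeR). The glial difference did not pass without E14.5 replicate 1 (adjusted p = 0.0879, edgeR), E14.5 replicate 2 (0.106), E15.5 replicate 1 (0.0845) or E17.5 (0.106).

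Egr1, Ier2 and Atf3 rose from SGN-like to glia-like to OM-like cells. Egr1 was at 111, 179.5 and 218 CPM in SGN-like, 363, 574 and 652 CPM in glia-like and 1084, 1467 and 2495 CPM in OM-like cells, and the classes did not overlap. The differences from SGN-like cells were 3.60-fold in glia-like cells (log2 1.85 ± 0.21, adjusted p = 0.000188, edgeR) and 10.0-fold in OM-like cells (3.33 ± 0.27, adjusted p = 5.54e-05, edgeR). Atf3 was higher by 6.96-fold and 24.1-fold, from 6.94, 12.8 and 30.8 CPM in SGN-like cells to 36.5, 80.4 and 150.3 CPM in glia-like and 146, 336 and 376 CPM in OM-like cells. Ier2 was higher by 2.29-fold and 7.13-fold. Between OM-like and glia-like cells Junb (3.62-fold), Atf3 (3.50-fold), Ier2 (3.15-fold) and Egr1 (2.81-fold) were all higher in OM-like cells with any 1 plate left out. Fosb (1.36-fold higher in OM-like cells, adjusted p = 0.0293, edgeR) and Jun (1.29-fold lower, adjusted p = 0.0325, edgeR) passed with 2 of the 6 plates left out in turn, and not without either E14.5 plate, E15.5 replicate 1 or 2 (Fosb) or E16.5 replicate 3 or E17.5 (Jun), with adjusted p between 0.0585 and 0.101.

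Like Npas4, described below, Dusp1 was lower in glia-like than in SGN-like cells, where Fos, Fosb, Jun, Junb, Egr1, Ier2 and Atf3 were higher. Levels of Dusp1 were 384, 419.5 and 773 CPM in SGN-like, 56.4, 71.0 and 127 CPM in glia-like and 195, 283 and 563 CPM in OM-like cells. It was 5.68-fold lower in glia-like than in SGN-like cells (log2 −2.51 ± 0.21, adjusted p = 3.95e-05, edgeR), with no overlap, and 3.77-fold higher in OM-like than in glia-like cells (log2 1.91 ± 0.22, adjusted p = 0.000391, edgeR). OM-like and SGN-like plates overlapped (log2 −0.61 ± 0.28, adjusted p = 0.112, edgeR), a difference that passed without E15.5 replicate 2 (−0.88, adjusted p = 0.0171, edgeR). Of the other MAP kinase phosphatases, a share near that of all genes differed between glia-like and SGN-like cells (6 of 12, against 53.7%). Dusp26 (log2 −5.43), Dusp8 (−2.06) and Dusp4 (−1.84) were lower and Dusp16 (2.24) and Dusp3 (0.70) higher, among 4 lower and 2 higher.

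In the SS2_20 plates Npas4 was found almost only in SGN-like cells. Over the 6 plates it had 1456 counts in 78 of 434 SGN-like cells (13.9 CPM pooled), 89 counts in 4 of 1149 glia-like cells (0.329 CPM) and 14 counts in 2 of 543 OM-like cells (0.100 CPM). Of the 89 glial counts, 81 came from E16.5 replicate 3. This did not extend to the other series, where Npas4 read 25.8 and 9.86 CPM in glia-like and 7.45 and 12.3 CPM in OM-like cells of the SS2_18 plates (23 and 11, and 5 and 10 cells), and 3.86 and 4.51 CPM in glia-like cells at E18.5. It was lower than in SGN-like cells in both classes (adjusted p = 0.00231 in glia-like and 0.00107 in OM-like cells, edgeR), and the size of a fitted change against plates at 0 depends on the prior count and is not given. Arc did not separate the classes, at 2.62, 4.06 and 14.6 CPM in SGN-like, 1.88, 5.22 and 7.87 CPM in glia-like and 1.87, 7.04 and 21.6 CPM in OM-like cells (adjusted p = 0.891 and 0.536 against SGN-like cells, edgeR). The log2 difference of Arc was −0.10 ± 0.52 in glia-like and 0.44 ± 0.54 in OM-like cells, an error that leaves room for a change of either sign.

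**Figure D4:**
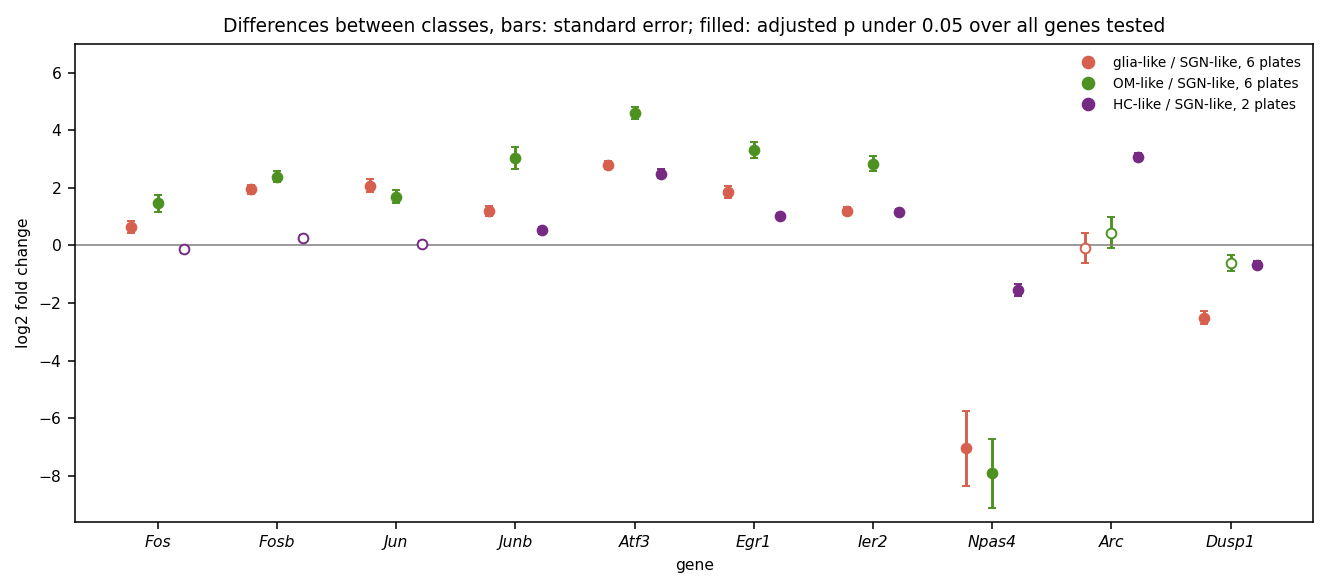
Log2 difference from SGN-like cells (y axis) of the 10 genes (x axis) in glia-like and OM-like cells (6 SS2_20 plates) and in HC-like cells (2 E18.5 plates), with bars of 1 SE and filled points for an adjusted p under 0.05 in edgeR. Atf3 is highest in OM-like cells (4.59), Dusp1 is below 0 in each class, and Arc is clearly above 0 in HC-like cells alone (3.07).

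The same summed level came from many cells for some genes and from few for others. Shares of cells are after thinning to 100000 counts per cell, and 155 of the 4226 cells were shallower and left out. Jun had a count in 96.3% to 100% of glia-like cells, and the highest 5% of them held 14.9% to 25.5% of its counts. Fos was nearly as widespread in glia-like cells (74.7% to 92.6%), but the highest 5% held 52.9% to 67.8% of its counts, against 15.8% to 29.4% in SGN-like cells (76.8% to 89.6% with a count). Dusp1 was both rare and concentrated in glia-like cells, with a count in 22.1% to 26.3% and 62.3% to 82.2% of counts in the highest 5%, against 87.1% to 96.6% and 16.3% to 27.6% in SGN-like cells. In glia-like cells, then, a minority carried most of the Fos and Dusp1 counts while Jun was spread over nearly all of them. Atf3 was in 5.19% to 24.3% of SGN-like, 13.2% to 35.3% of glia-like and 45.0% to 55.2% of OM-like cells.

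**Figure D5:**
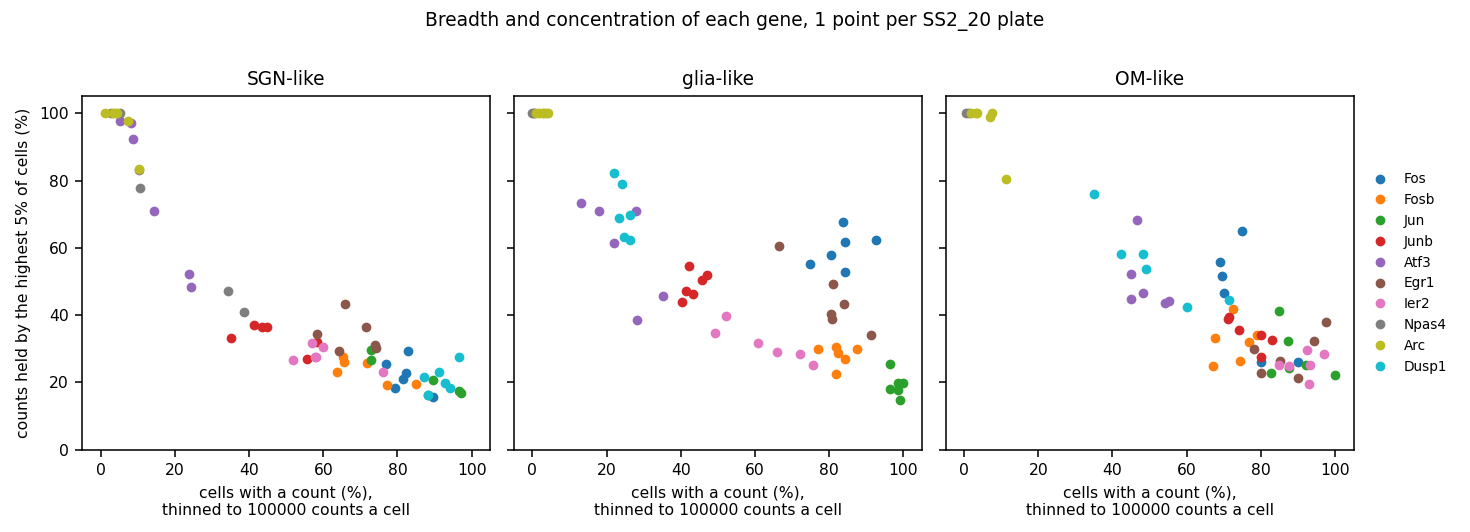
Share of cells with a count after thinning to 100000 counts (x axis, percent) against the share of all counts held by the highest 5% of cells (y axis, percent) for each of the 10 genes in each SS2_20 plate, in 3 panels for SGN-like, glia-like and OM-like cells. Fos lies low in the SGN-like panel (15.8% to 29.4% on the y axis) and high in the glia-like panel (52.9% to 67.8%), and Dusp1 moves from the lower right to the upper left.

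HC-like cells could be compared with SGN-like cells at E18.5, with 37 and 32 HC-like cells in the 2 plates, whose HC markers summed to 7993 and 9669 CPM. The paper found cochlear and vestibular hair cells in its data and left the vestibular ones out of its analysis. HC-like cells were not split in this way here, so their values may mix both types. Of the 10 genes, 5 were higher and 2 lower in HC-like cells, against 25.9% of all genes higher, 27.3% lower and 53.2% in all. Arc stood out, at 104 and 66.2 CPM in HC-like cells against 13.1 and 8.00 CPM in SGN-like cells, 8.41-fold higher (log2 3.07 ± 0.15, adjusted p = 4.99e-05, edgeR). It had a count in 67.6% (95% exact binomial interval 50.2% to 82.0%) and 50.0% (31.9% to 68.1%) of thinned HC-like cells and in 24.7% and 16.7% of SGN-like cells, intervals that cover counting error only. Atf3 was 5.62-fold higher, with 247 and 170.1 CPM against 39.8 and 36.2 CPM (adjusted p = 0.000113, edgeR), Ier2 2.23-fold, Egr1 2.04-fold and Junb 1.43-fold higher. Npas4 was 2.92-fold lower (15.1 and 11.3 CPM, adjusted p = 0.00186, edgeR) and Dusp1 1.60-fold lower (adjusted p = 0.0068, edgeR), while Fos, Fosb and Jun had adjusted p of 0.308, 0.0906 and 0.798. Against the SGN-like cells under 100 CPM of glial markers of the same plates, 8 of the 10 differences were positive. Among them were Arc (4.74), Egr1 (3.86) and Fos (1.33 on the log2 scale), while Npas4 (−1.60) and Dusp1 (−0.58) were again negative. With 1 plate left out no residual spread remained, so this comparison has no check by plate.

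Glia-like cells at E18.5 were few (13 in each plate) and had levels of Fos and Egr1 above those of every class and plate of series SS2_20 given above. Fos read 6444 and 4901 CPM in them, Egr1 3561 and 2888 CPM and Fosb 1408 and 809 CPM, and the 10 genes took 1.40% and 1.29% of their counts, against 0.318% to 0.441% in glia-like cells of the SS2_20 plates. The cells of replicate 2 also held 4534 CPM of macrophage markers, against 1.18 CPM in replicate 1. Their SGN markers were at 2468 and 2548 CPM, and series and stage cannot be told apart for them. The mixed class lay between the glia-like and SGN-like cells of the same plates for Fos (4701 and 3939 CPM), Egr1 (2660 and 2247 CPM) and Jun (926 and 922 CPM), with 9 of the 10 genes in the median cell.

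No change with age passed in glia-like cells of series SS2_20. Comparing the E16.5 and E17.5 plates with the 4 plates of E14.5 and E15.5, 0 of the 10 genes passed in glia-like cells (0.0119% of all genes, with 2 of 10 at an unadjusted p under 0.05, and 0 by DESeq2 or limma) and 0 in SGN-like cells (0.392%, with 4 of 10 at an unadjusted p under 0.05, and 1 each by DESeq2 and limma). Whether the change with age differed between the classes was tested as an interaction. In edgeR 0 of 10 passed (0.0% of all genes), with 0 of 10 at an unadjusted p under 0.05. In limma 0 of 10 passed as well, with 2 of 10 at an unadjusted p under 0.05. With 2 plates against 4 this does not show that the levels stayed the same. The dissection differed between the same groups of plates, and its part was not tested.

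Within a class, the genes rose and fell together from cell to cell to unequal degrees. Over the 45 pairs, the median Pearson r of log levels across cells was 0.26 in SGN-like (12 plates), 0.24 in glia-like and 0.44 in OM-like cells (6 plates each), and thinning left these at 0.25, 0.24 and 0.44. Cells of a plate share its library, and no p is given. The tightest pairs in SGN-like cells were Fos with Fosb (median r 0.67, range 0.32 to 0.81 over plates), Fos with Egr1 (0.54) and Fosb with Egr1 (0.52), and Dusp1 followed Fos at 0.51. Npas4 and Arc, the genes that follow neuronal activity, were uncorrelated with each other (−0.01), and Arc was the least linked of the 10 (median over its 9 partners 0.09). In OM-like cells Fos and Egr1 reached 0.69 and in glia-like cells Fosb and Egr1 0.57.

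The genes most like the 10 were ranked over 8368 genes detected in at least 20% of SGN-like cells of every plate, by the correlation with their mean z score. Nr4a1, an orphan nuclear receptor and itself an immediate early gene, came first (median r 0.49, range 0.12 to 0.83 over 12 plates). Klf6 (0.43), Ppp1r15a (0.41), a phosphatase subunit of the stress response, Sik1 (0.40), Tob1 (0.40), Btg2 (0.39), Atf4 (0.38), Tob2 (0.37), Pnrc1 (0.37) and Mafk (0.37) followed. Of these 10 genes, 7 are in the glia-linked list of the study and 6 are in the lists of early, activity and stress genes described next.

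A wider list of 35 other immediate early genes was read in the same fits. In SGN-like cells 8 of 33 tested rose and 0 fell from E15.5 to E16.5 (1.42% and 0.475% of all genes), led by Egr3 (log2 4.82), the cytokine signal inhibitor Socs3 (2.92) and the RNA-decay factor Zfp36 (2.34), with a list median of 1.28. From E16.5 to E18.5, 7 rose and 4 fell (2.53% and 2.25% of all genes), with Egr2 (4.59), Egr3 (3.43) and Cyr61 (2.43) rising and Jund (−1.31), Per1 (−0.89) and Sik1 (−0.75) falling. Egr2 is also a master factor of myelinating glia, and in SGN-like cells under 100 CPM of glial markers 0 of the 33 rose and 8 fell over this step. In those cells 546 of 15644 genes passed in all. From E18.5 to P3, 7 fell (12.2% of all genes), led by Egr3 (−2.08), Btg2 (−1.87) and Klf6 (−1.44), and Ier5 rose (1.10). From E14.5 to E15.5, 5 fell (2.77% of all genes), led by Cyr61 (−2.55), Zfp36 (−2.33) and Btg2 (−2.08), and Per1 rose (0.87). Between classes, 26 of 32 were higher in glia-like than in SGN-like cells (28.2% of all genes, list median 1.95 against 0.10 over all genes), with Egr3 (8.08), Egr2 (8.06) and Zfp36l1 (6.12) ahead and Plk3 (−1.19) lower, and 26 of 33 were higher in OM-like cells (24.4% of all genes). In HC-like cells at E18.5 they split, 11 higher and 11 lower of 33, near the 25.9% and 27.3% of all genes, with Fosl1 (6.21), Egr4 (6.05) and Ctgf (5.91) higher and Myc (−4.37) lower.

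The neuronal activity and stress lists are set beside the share of all genes called, which was 6.06%, 1.9%, 4.77% and 24.9% over the 4 steps in turn. Of 15 neuronal activity response genes, 0 passed from E14.5 to E15.5 (edgeR), the cell cycle inhibitor Cdkn1a alone rose into E16.5 (log2 1.15), and at P3 Nptx2 (2.62), Nrn1 (2.01) and Rgs2 (1.05) were higher and the neuropeptide precursor Vgf (−0.81) lower than at E18.5, 4 of 15 and near the share of all genes. Vgf also fell from E16.5 to E18.5 (−1.42). In glia-like cells 5 of the 15 were lower than in SGN-like cells (25.5% of all genes), led by Vgf (−8.50) and Scg2 (−7.66). Inhba (5.51) and Crem (3.34) were the 2 that were higher (28.2% of all genes). In HC-like cells Inhba (7.81), Rasgrp1 (7.16) and the neurotrophin Bdnf (4.98) were among 6 that were higher (25.9% of all genes). Lower in HC-like cells were 5 (27.3% of all genes), among them Vgf (−5.87) and Nrn1 (−5.84). Of 16 heat shock and chaperone genes, 0, 1, 1 and 3 passed over the 4 steps in SGN-like cells, Dnajb4 rising into E16.5 (1.22), Hsp90ab1 falling slightly to E18.5 (−0.27) and Dnajb4 (1.13), Dnaja1 (1.03) and Hsp90aa1 (0.56) rising at P3. Between classes, 7 of 15 heat shock genes were higher in glia-like than in SGN-like cells (28.2% of all genes), led by the co-chaperone Bag3 (8.68) and the inducible Hspa1a (3.27), and 4 were lower (25.5% of all genes), led by Hsp90aa1 (−0.81). Between OM-like and glia-like cells 0 of 16 passed (edgeR).

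Upstream of the 10 genes, the list of kinases and factors had 4 of 30 called from E14.5 to E15.5 (6.06% of all genes), with Camk4 rising (log2 1.30) and Atf1 (−1.98), Map3k12 (−1.02) and Mef2c (−0.76) falling. In each of the next steps 1 of 30 passed, near the 1.9% and 4.77% of all genes, Camk2b rising into E16.5 (0.95) and the JNK gene Mapk8 falling to E18.5 (−0.60). At P3 9 of 30 passed, near the 24.9% of all genes, 6 higher, among them Map2k4 (1.35) and Mef2a (1.10), and 3 lower, led by Srf (−1.10), which encodes serum response factor. The MAP kinase phosphatases that fell with Dusp1 from E16.5 to E18.5 were 5 of 12 (2.25% of all genes), led by Dusp14 (−3.10), Dusp10 (−1.69) and Dusp7 (−1.55). In the cells under 100 CPM of glial markers 5 of 12 also fell, where 546 of 15644 genes passed in all.

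Of the injury and ATF4 response genes, 3 of 17 fell and 0 rose from E14.5 to E15.5 (2.77% and 3.28% of all genes), the injury-induced peptide Gal (−4.45), Chac1 (−3.36) and Atf4 (−0.58). From E15.5 to E16.5, 0 of 17 passed in edgeR, and from E16.5 to E18.5, 3 of 17 fell (2.25% of all genes), Ddit3 (−0.88), Sox11 (−0.87) and Tubb2b (−0.87). At P3, 6 of 17 passed (24.9% of all genes), with Asns (0.77) and Atf4 (0.59) higher and Sox11 (−1.28), Stmn4 (−1.19) and Tubb2b (−1.14) among 4 lower. In glia-like against SGN-like cells 7 of 16 were higher (28.2% of all genes), among them Flrt3 (3.78) and Ppp1r15a (2.09), and 5 lower (25.5%), led by Gal (−9.66).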

How the data were processed

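Smart-seq2 libraries of tdTomato-positive mouse cochlear cells were read in 12 plates. The values are raw counts per gene and cell, as deposited by the authors, who aligned reads with STAR to mm10 with ERCC spike-ins and used uniquely mapped reads. Whether strand was used is not stated. A further 384 wells of 1 plate with no sample were not used. Kept cells had over 1000 genes detected and less than 5% spike-in counts, and were clustered within stage (E17.5 with E18.5) in scanpy 1.11.5 (2000 variable genes, 30 components, Leiden 0.10.2 at resolution 1), without the 10 genes, the other gene lists and the glia-linked list. The rule that names clusters from markers was revised after cluster tables were seen and before any test. No doublets were called. Counts were summed per plate and class (at least 5 cells, or 3 for HCs) and tested in edgeR 4.0.16 (R 4.3.3) by the quasi-likelihood test with TMM factors. Stage contrasts came from 1 fit of 12 plates, and class contrasts had the plate as block. DESeq2 1.42.0 and limma 3.58.1 (log2 of mean CPM plus 1) were alternatives, with other filters, clusterings, depths and plates left out. The tests were checked on simulated data. p-values measure the spread between plates, which may be technical. The members and lists were chosen with earlier results of these data known. All 10 genes are named, and from each other list up to 3 called genes per direction with the largest change, of which 1 is not reported here. The authors' glia-linked list was used for membership only.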

Additional observations from a re-analysis of the deposited data

How the results depend on the processing

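Counts are of the 10 genes that passed. With SS2_20 plates only, the count fell to 4 for any stage and to 0 from E15.5 to E16.5. In SGN-like cells under 100 CPM of glial markers it was 4 from E15.5 to E16.5 and 5 from E16.5 to E18.5, where 160 and 546 of 15644 genes passed in all. Fewer passed than in the main fit at P3 and between series, each with 1 plate on 1 side. The direction turned from E16.5 to E18.5 for Fos (−1.38), Fosb (−1.25), Egr1 (−1.34), Ier2 (−0.72) and Arc (−1.39). It also turned at P3 for Fos (0.31), Egr1 (0.24) and Dusp1 (0.70), for Arc in glia-like cells (0.027) and for Fos in HC-like cells (1.33), all on the log2 scale. DESeq2 gave 4 from E14.5 to E15.5, where 2648 of 21822 genes passed in all, against 1072 of 17698 in edgeR. Over the period in SGN-like cells it gave 1 (600 of 21931 genes in all), and limma also gave 1 (121 of 16820). EdgeR gave 0 there (66 of 16820). Between series, with 1 SS2_20 plate, more of the 10 genes and more of all genes passed in DESeq2 than in edgeR. Without the 5% of cells with the highest counts 1 passed between series, and Fos turned to −0.017 from E14.5 to E15.5. Limma turned Atf3 from E16.5 to E18.5 (0.056), Arc at P3 (−0.066) and Jun in HC-like cells (−0.042), which also turned with glial genes kept for clustering (−0.0076) or with no filter (−0.033), and Leiden resolution 2 turned Npas4 between series (−0.0054). The cause was not tested. With each plate left out in turn, the counts ranged from 9 to 10 for any stage, 1 to 3 from E14.5 to E15.5, 1 to 8 from E15.5 to E16.5, 1 to 2 from E16.5 to E18.5, 4 to 8 at P3, 0 to 4 between series, 8 to 9 in glia-like and 8 to 9 in OM-like against SGN-like cells, 5 to 7 in OM-like against glia-like cells, and 0 in the 3 comparisons over the period. Plates left out turned Fos from E14.5 to E15.5 (−0.11 to 0.33) and, from E16.5 to E18.5, Fos (−0.086 to 0.18), Fosb (−0.10 to 0.19), Arc (−0.31 to 0.53) and Atf3 (−0.44 to 0.17), Arc at P3 (−0.32 to 0.53) and Arc in glia-like cells (−0.38 to 0.28). Of values that passed, 320 kept their call and 62 lost it with a plate left out, and 470 kept it, 23 lost it and 4 turned under other alternatives. Without the replicate block the class comparisons gave 9 (glia-like), 8 (OM-like), 7 (OM-like against glia-like) and 7 (HC-like), and no count changed. No paired analysis was possible because, between stages, a replicate number names a plate and no label says that it marks shared animals or a shared day.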
